A study of Homo sapiens with 4 samples.

Results

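The HOX genes of the 4 human clusters were examined for N6-methyladenosine (m6A) in MDA-MB-231, a long-established human cell line from a triple negative breast cancer. Members were all protein-coding genes whose symbol is HOX followed by the cluster letter A, B, C or D and a number, which gave 39 genes among the 19153 protein-coding genes of the RefSeq annotation. No measured value entered the choice. In m6A-seq, poly(A) RNA is fragmented and immunoprecipitated (IP) with an m6A antibody, and stretches richer in IP than in input RNA are called as peaks. The data came from 2 input and 2 IP libraries, all titled shNS, and no library of another genotype or treatment was compared. Both IP libraries carry YTHDC1 in their treatment field, but titles and protocol name an anti-m6A antibody, and they were taken as m6A IP. All 4 libraries had been combined into 1 list of 20261 peaks with a single score each, so no spread between replicates could be computed and no difference was tested. The list holds no expression values, so the identity of the cells could not be checked against marker levels, and a HOX gene without m6A and one with too little RNA cannot be told apart.

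HOX genes encode homeodomain transcription factors that specify position along the head-to-tail axis of the embryo, and their order along a chromosome follows the order of the body regions in which they act. Genes with the same number in different clusters are paralogues: low numbers act in the hindbrain and neck, middle numbers in the trunk, and high numbers in the lower trunk, limbs and genital tract. Many HOX genes stay active in adult tissues and are misregulated in breast and blood cancers. The clusters also give rise to long non-coding RNAs, many of them antisense to a HOX gene. m6A is an internal mark of mRNA that readers such as YTHDC1 recognise, and it often lies near stop codons and in 3′ untranslated regions. An m6A antibody also binds a related modified base next to the cap, so a peak at a transcription start can have another source than internal m6A.

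In 3 of the 20 HOX genes with an entry in the RefSeq start table, a peak of the gene covered the first 50 transcribed bases of an annotated start. The 3 stretches are shown because a border of a peak block lay at or near the start of transcription. Each gives 30 bases of GRCh38.p14 around the 5′ border of that block. The bases are read 5′ to 3′ on the strand of the gene, with the 15 bases inside the block in capitals. In HOXA4 and HOXD13 this is also the 5′ border of the peak. The HOXA9 block is the downstream one of 2, and the HOXA9 peak reaches 3804 bases upstream of the start. The stretches lie at chr7:27130766-27130795 (minus strand, HOXA4), chr7:27165523-27165552 (minus strand, HOXA9) and chr2:176092706-176092735 (plus strand, HOXD13).
HOXA4: tcggcaagcccagaaAAAACGACAACGCGA
HOXA9: tacttcccccccggtGCCACCAAGTTGTTA
HOXD13: gcgatgagctaacctGTTGGAGGGCAGGCG
For HOXA9 and HOXD13 a block border coincided with the first transcribed base, and for HOXA4 it lay 23 bases upstream. Peaks had been called after alignment to GENCODE transcripts. Whether such a border is an edge of enrichment or follows an annotated end was not tested. The 3 covered windows were among 27 HOX start windows (11.1%), against 1625 of 21572 windows of protein-coding genes (7.53%). The RRACH motif, the usual context of m6A (a pair of purines, then AC, then A, C or T), was searched on the transcript strand only. It was found in 7 of the 27 HOX windows (25.9%) and in 37.1% of all windows, but in none of the 3 windows covered by a peak. A match is a string of letters and not a measured site.

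Most HOX genes had a listed peak. Of the 39 genes, 33 did (84.6%, 95% Wilson interval 70.3 to 92.8%), with 82 peaks in all, whereas 42.7% of all protein-coding genes had 1 or more. Wilson intervals here treat genes as independent and cover counting error only, although HOX genes of a cluster share sequence and overlap each other. The intervals given below for shares of peaks also treat peaks as independent, although many come from the same gene and some overlap. Of the 33 genes with a peak, 7 had a single peak, 12 had 2 and 14 had at least 3. The score, the authors' value for a peak, is read here as a p-value for enrichment in IP over input, so that smaller means stronger. The list median was 5.2e-08, which is 7.28 on the −log10 scale. A peak at or under this median was found for 24 of the 39 HOX genes, against 27.8% of all protein-coding genes, and 51 of the 82 HOX peaks (62.2%) reached it, against 52.7% of all protein-coding peaks. No HOX peak was listed at 0, the limit of the stored values.

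The 6 genes without a listed peak were HOXB1, which patterns the hindbrain segment that gives rise to the facial nerve, HOXC5, HOXC12, HOXD1, HOXD4 and HOXD12. By paralogue number, a peak was listed for 6 of 8 genes numbered 1 to 3, for 13 of 15 numbered 4 to 8 and for 14 of 16 numbered 9 to 13. Paralogue group 12 was the group without any peak, in both of its 2 genes. The HOXC5 span lies inside the longer span of HOXC4 and contains the shorter span of HOXC6. The HOXC5 span held 2 peaks assigned to HOXC6 and 1 assigned to ENSG00000273046. No peak of another gene lay in the spans of the other 5.

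The 4 clusters differed in the number and strength of their peaks. All 11 HOXA genes had a peak (31 peaks), as did 9 of 10 HOXB genes (28 peaks), 7 of 9 HOXC genes (11 peaks) and 6 of 9 HOXD genes (12 peaks). The median over genes of the strongest −log10 score was 87.2 in HOXA and 120 in HOXB, but 4.60 in HOXC and 14.3 in HOXD. HOXA and HOXB are read from the minus strand of their chromosomes and HOXC and HOXD from the plus strand, and 72.3% of all listed peaks were on the minus strand. Cluster and strand cannot be told apart, because each cluster lies on 1 strand.

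**Figure D1:**
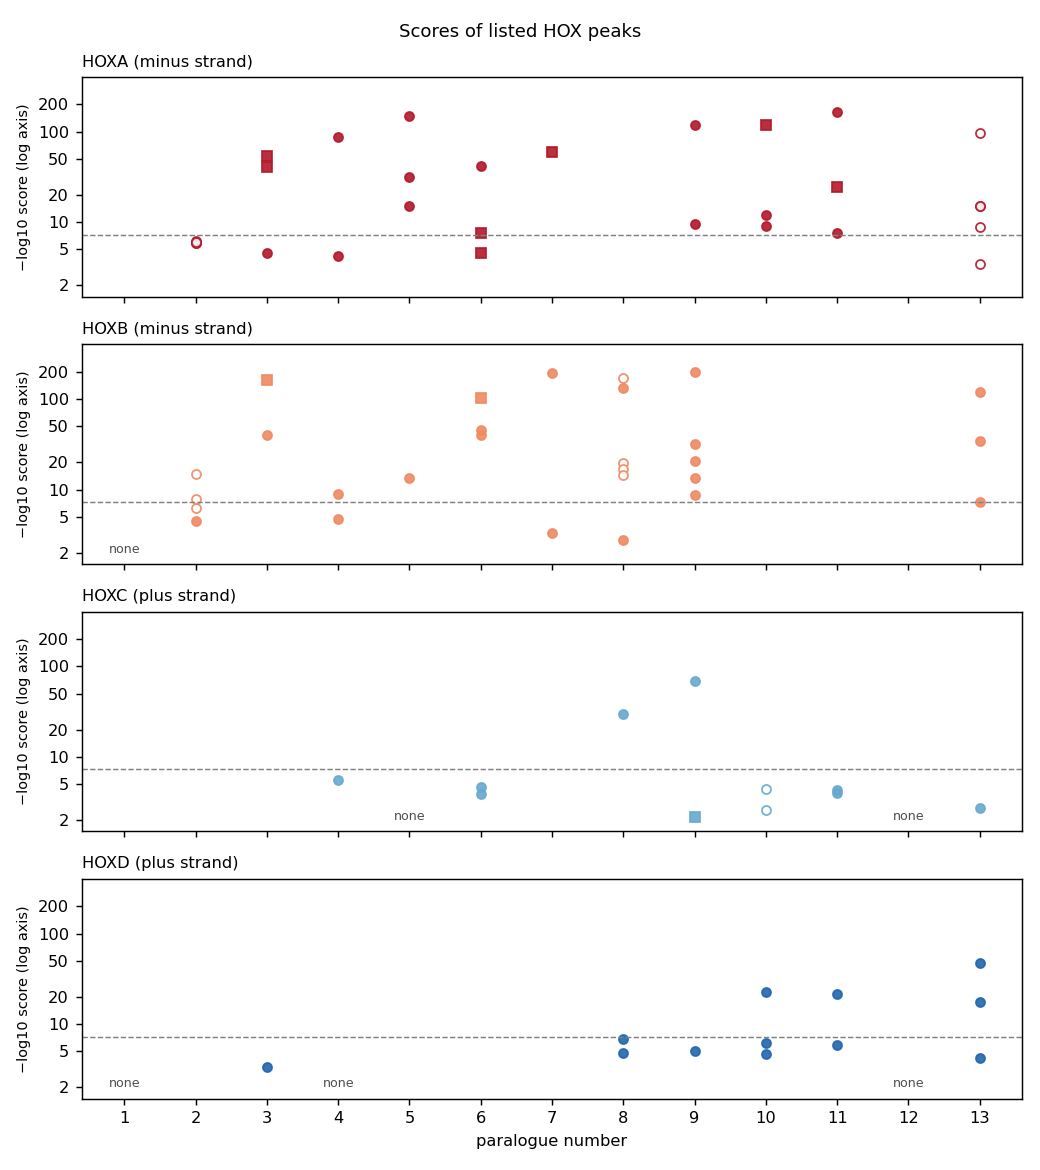
The −log10 score of 80 of the 82 HOX peaks (y axis, log scale) is plotted by paralogue number for the 4 clusters, with filled symbols for the first part of the list, open symbols for its second part, squares for peaks that overlap a peak on the opposite strand, and a dashed line at the list median of 7.28. Peaks above 100 are found in HOXA and HOXB, whereas the highest value is 69.3 in HOXC and 47.0 in HOXD.

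When set beside genes of the same strand, both pairs of clusters had a larger share of genes with a peak, whereas the median strongest −log10 score lay above that of the strand in HOXA, HOXB and HOXD (14.3, against 6.0 on the plus strand) and below it in HOXC (4.60). These differences were not tested. The strongest HOXD10 peak lies inside HOXD11 and shares 390 bases with the strongest HOXD11 peak, so the HOXD median counts the same region for both genes. The strongest peak inside the own span of HOXD10 had a −log10 score of 6.22. With that value for HOXD10, the HOXD median would lie between 6.22 and 6.92, close to the 6.0 of the plus strand. The shares of protein-coding genes by strand cover genes with an entry in the RefSeq start table only. The HOX shares cover all 39 HOX genes, of which 20 had such an entry, and HOX shares within that table were not computed. Of the 21 HOXA and HOXB genes, 20 had a peak (95.2%, 95% Wilson interval 77.3 to 99.2%), against 57.5% of minus-strand protein-coding genes, and 19 had a peak at or under the list median, against 45.3%. Of the 18 HOXC and HOXD genes, 13 had a peak (72.2%, 49.1 to 87.5%), against 30.3% of plus-strand protein-coding genes, and 5 had one at or under the median, against 12.6%. These 5 include HOXD10, whose 1 peak at or under the median is the one that overlaps the HOXD11 peak. Among genes with a peak, the median strongest −log10 score was 99.3 in HOXA and HOXB and 31.1 on the minus strand as a whole, but 5.49 in HOXC and HOXD pooled and 6.0 on the plus strand as a whole. HOXA and HOXB genes with a peak had 2.95 peaks each and minus-strand genes 2.33, while HOXC and HOXD genes had 1.77 and plus-strand genes 1.66. Of the 59 HOXA and HOXB peaks, 13 stood in the second part of the list, which held 745 of all 20261 peaks. With overlapping peaks of the same strand merged, 53 of the 59 remained. Leaving out the second part removes 13 HOXA and HOXB peaks but no HOXA or HOXB gene. Their peaks per gene then lie no higher than the 2.33 of minus-strand genes. That 2.33 counts both parts of the list, and a minus-strand value without the second part was not computed. Peaks were longer in HOXA and HOXB (median 326 spliced bases, 241 on the minus strand) than in HOXC and HOXD (210, with 181 on the plus strand). With the medians of each strand in place of the list median (3.2e-10 on minus, 1.4e-05 on plus), 18 of 21 HOXA and HOXB genes had a peak at or under it, against 42.6% of minus-strand protein-coding genes, and 8 of 18 HOXC and HOXD genes did, against 18.3% of plus-strand protein-coding genes.

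**Figure D2:**
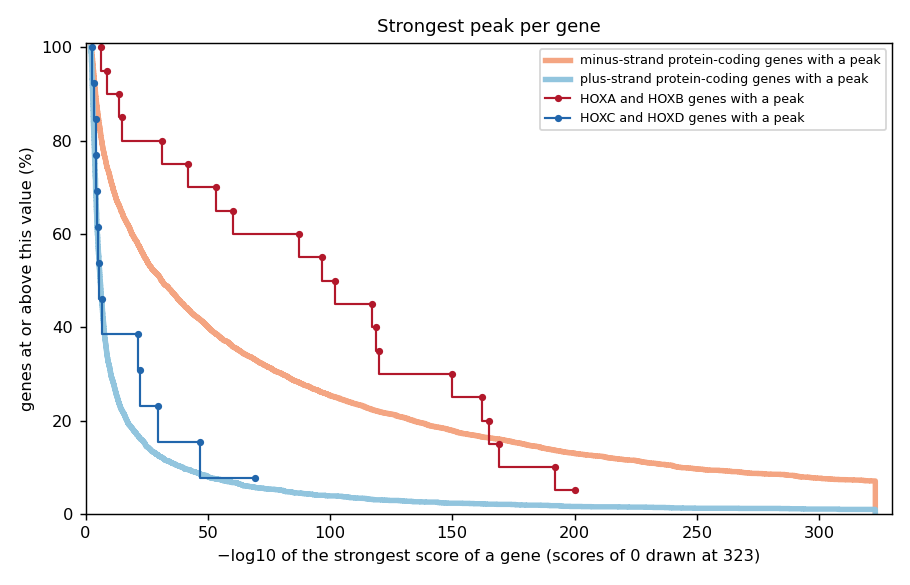
For each −log10 score (x axis), the curves give the percentage of genes whose strongest peak reaches that value (y axis), for HOXA and HOXB genes, HOXC and HOXD genes, and all protein-coding genes with a peak on each strand. The HOXA and HOXB curve has its median at 99.3 and the minus-strand curve at 31.1, while the pooled HOXC and HOXD curve has its median at 5.49 and the plus-strand curve at 6.0.

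The posterior genes of HOXA and HOXB all had peaks with small scores. The 6 genes numbered 9 to 13 (HOXA9, HOXA10, HOXA11, HOXA13, HOXB9 and HOXB13) had strongest scores from 1e-200 to 2.5e-97, and 19 of their 21 peaks (90.5%) reached the list median, against 60.9% of minus-strand protein-coding peaks. The 9 genes numbered 4 to 8 in these clusters all had a peak at or under the median, with strongest scores from 1e-192 to 1.3e-09. Of the 6 genes numbered 1 to 3, 4 had one, and 8 of their 15 peaks (53.3%) reached the median, a share below that of minus-strand peaks as a whole. These groups hold few genes, and no order between them was tested.

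In the HOXA cluster on chromosome 7, the anterior genes HOXA2 and HOXA3 had strongest scores on either side of the list median. HOXA2, which patterns the second pharyngeal arch, had 4 listed peaks that were all above the list median: 27101123 to 27101330 (208 bases, 5.4e-07), 27101140 to 27101318 (179 bases, 7.8e-07), 27100709 to 27101034 (326 bases, 1.1e-06) and 27100724 to 27101051 (328 bases, 1.1e-06). They formed 2 regions, each listed in both parts of the list, so HOXA2 counts as a gene with 2 distinct peaks. HOXA3, needed for thymus and parathyroid formation, had peaks at 27107828 to 27108307 (480 bases, 3.2e-54), 27110119 to 27110508 (390 bases, 5e-41) and, 617 bases beyond the 3′ end of its RefSeq span, 27106393 to 27106573 (181 bases, 2.7e-05).

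The central HOXA genes each had a peak well under the median. HOXA4 had a peak of 686 bases at 27128715 to 27129400 (6.3e-88), 190 bases from its 3′ end, and the start peak of 209 bases at 27130572 to 27130780 (5.6e-05), whose border is printed above. HOXA5, a regulator of airway and lung development, was strongest at its 5′ end, where a peak of 564 bases at 27143118 to 27143681 (1e-150) began at the first base of the RefSeq span. Its other peaks were 27141645 to 27142729 (blocks of 441 and 4 bases, 5e-32) and 27141141 to 27141378 (238 bases, 6.3e-16). HOXA6 showed the opposite order, with its strongest peak of 389 bases at 27145396 to 27145784 (1.6e-42) reaching the last base of the span, and weaker ones at 27147323 to 27147503 (181 bases, 3.1e-08) and 27150484 to 27150603 (120 bases, 2.9e-05), the last of them 2829 bases upstream of its 5′ end. HOXA7 had 1 peak, of 624 bases at 27154428 to 27155051 (5e-61).

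The posterior HOXA genes act in blood, the genital tract and the limbs. HOXA9, a driver of acute leukaemia when overexpressed, had a peak of 447 bases at 27163389 to 27163835 (1e-117) and one at 27165347 to 27169341 in blocks of 191 and 48 bases (2.6e-10). The 191-base block is the one that ends at the HOXA9 start printed above, and the other block lies 3756 bases further upstream. HOXA10, required in the uterus, had peaks at 27171672 to 27172422 (blocks of 502 and 9 bases, 1e-119), 27171192 to 27171402 (211 bases, 7.9e-13) and 27173646 to 27173856 (211 bases, 8.1e-10). HOXA11, a gene of the uterus, kidney and forearm, had the strongest HOXA peak, of 811 bases at 27182176 to 27182986 (1e-165), and weaker ones at 27184782 to 27185172 (391 bases, 6.3e-25) and 27181787 to 27182086 (300 bases, 2.8e-08). HOXA13, which shapes digits and is mutated in hand-foot-genital syndrome, had 5 listed peaks. The strongest, at 27197826 to 27199196 in blocks of 617 and 41 bases (2.5e-97), stood in the second part of the list, as did 27194842 to 27195259 (418 bases, 1.3e-15), 27196304 to 27196573 (270 bases, 1.2e-09) and 27194424 to 27194603 (180 bases, 0.00039). In the first part HOXA13 had a single peak, at 27194817 to 27195281 (465 bases, 1.3e-15), which shared 418 bases with one of the others at the same score.

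In the HOXB cluster on chromosome 17, the genes numbered 2 to 5 had strongest scores from 1e-162 in HOXB3 to 1.3e-09 in HOXB4. HOXB2, a hindbrain gene, had peaks at 48542714 to 48543099 (386 bases, 1.3e-15), 48544575 to 48544812 (238 bases, 1.2e-08), 48543306 to 48543483 (178 bases, 5e-07) and 48541613 to 48543116 (blocks of 19 and 162 bases, 3.3e-05). Of these the last, which shared 145 bases with the first, was the one in the first part of the list. HOXB3 had a peak of 989 bases at 48549918 to 48550906 (1e-162), the longest HOX peak, and one of 420 bases at 48604493 to 48604912 (1e-40) that lay 14671 bases upstream of its own 5′ end and inside HOXB6. HOXB4, which expands blood stem cells when overexpressed, had peaks at 48576403 to 48576672 (270 bases, 1.3e-09) and 48576015 to 48576224 (210 bases, 2.1e-05). HOXB5 had 1 peak, of 327 bases at 48593458 to 48593784 (3.2e-14), whose border was 5 bases upstream of the RefSeq start, so that a restriction to peaks inside the span would leave HOXB5 without one.

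The 3 genes with the smallest HOX scores, HOXB9, HOXB7 and HOXB8, lie side by side here. HOXB6 had peaks at 48595751 to 48596559 (809 bases, 1e-102), which reached its 3′ end, 48597934 to 48603807 (blocks of 327 and 93 bases, 5e-46) and 48604513 to 48604962 (450 bases, 3.2e-41), 24 bases inside its 5′ end. HOXB7, which is overexpressed in breast cancers, had a peak at 48607530 to 48608318 in blocks of 566 and 90 bases (1e-192) and a weak one at 48607351 to 48607470 (120 bases, 0.0005). HOXB8, which blocks the maturation of myeloid progenitors when overexpressed, had the most listed peaks, 6, of which 5 remained after merging. In the second part of the list they were 48612972 to 48613508 (537 bases, 1e-169), 48612555 to 48612823 (269 bases, 1.6e-20), 48614517 to 48614815 (299 bases, 1.6e-17) and 48614994 to 48615292 (299 bases, 2.5e-15), which began at the first base of the span. In the first part they were 48611583 to 48613479 (blocks of 22 and 274 bases, 1e-131) and 48611377 to 48611524 (148 bases, 0.0018), of which the former ran across and the latter lay beyond the 3′ end of the RefSeq span.

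HOXB9, a posterior gene also linked to breast cancer, had the strongest HOX peak, at 48622879 to 48625972 in blocks of 257 and 220 bases separated by a gap of 2617 bases (1e-200). Its other 4 peaks were 48626180 to 48626358 (179 bases, 7.9e-33), which began at the first base of the span, 48621275 to 48621513 (239 bases, 1.3e-21), 48621869 to 48622047 (179 bases, 5e-14) and 48622404 to 48622493 (90 bases, 1.9e-09). All 5 were under the list median. HOXB13, a prostate gene and partner of the androgen receptor, had peaks at 48726466 to 48726855 (390 bases, 1e-120), 48725181 to 48725510 (330 bases, 5e-35) and 48728849 to 48729058 (210 bases, 6.5e-08). The last was 308 bases upstream of the RefSeq span and just above the list median.

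In the HOXC cluster on chromosome 12, 2 genes stood above the others. HOXC9 had a peak of 358 bases at 54002564 to 54002921 (5e-70), and 5.71% of plus-strand protein-coding genes with a peak had a strongest score at or under it. HOXC8 had 1 peak, of 299 bases at 54011188 to 54011486 (3.2e-30). No other HOXC gene reached the list median. HOXC4 had 1 peak at 54017347 to 54037935 in blocks of 68 and 82 bases (3.2e-06). HOXC6 had peaks at 54029869 to 54030078 (210 bases, 2.5e-05) and 54017332 to 54028506 (blocks of 83 and 67 bases, 0.00012). The 5′ blocks of the HOXC4 and HOXC6 peaks ended at the same base and the 3′ blocks lay apart, with gaps of 20439 and 11025 bases. RefSeq gives HOXC4, HOXC5 and HOXC6 a common 5′ end.

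The remaining HOXC peaks were weak. HOXC10 had 2 peaks, at 53989350 to 53989500 (151 bases, 3.6e-05) and 53990069 to 53990189 (121 bases, 0.0024), both in the second part of the list, and without that part it would have none. HOXC11 had peaks at 53975547 to 53975727 (181 bases, 4.5e-05) and 53973306 to 53973515 (210 bases, 0.00011). HOXC13, needed for hair and nails, had 1 peak of 91 bases at 53945351 to 53945441 (0.0019), the weakest strongest peak of any HOX gene. The other HOXC9 peak, at 53994984 to 53995536 in blocks of 33 and 28 bases, had the largest HOX score, 0.0068.

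In the HOXD cluster on chromosome 2, strong peaks were found at its posterior end. HOXD13, which shapes digits and is mutated in synpolydactyly, had peaks at 176092721 to 176092989 (269 bases, 1e-47), 176094483 to 176094841 (359 bases, 2e-18) and 176095616 to 176095765 (150 bases, 5.5e-05). The strongest of these is the start peak whose border is printed above, 5234 bases inside the RefSeq span, which has a further start upstream. HOXD11, which patterns the forearm with HOXA11, had peaks at 176108950 to 176109426 (477 bases, 2.5e-22) and, upstream of its span, 176104305 to 176104573 (269 bases, 1.1e-06). HOXD10, a reported target of miR-10b in breast cancer cells, had peaks at 176108969 to 176111442 (blocks of 390 and 60 bases, 4e-23), 176116893 to 176117102 (210 bases, 6e-07) and 176119194 to 176119404 (211 bases, 2.3e-05). HOXD8 had peaks at 176129784 to 176130023 (240 bases, 1.2e-07) and 176131441 to 176131650 (210 bases, 1.5e-05), HOXD9 had 1 of 179 bases at 176124106 to 176124284 (8.9e-06), and HOXD3 had 1 of 120 bases at 176172178 to 176172297 (0.00044). These 3 genes were above the list median. The 8 microRNA hairpins inside or beside the clusters (MIR10A, MIR10B, MIR196A1, MIR196A2, MIR196B, MIR615, MIR3185 and MIR7704) were covered by no peak of any gene.

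To place the peaks within genes, their midpoints were set on the RefSeq span of each gene, introns included. Of the 82 peaks, 69 lay wholly inside the gene to which they were assigned (84.1%, compared with 93.0% over protein-coding genes). The final 10% of the span held 14 of these 69 (20.3%, 95% Wilson interval 12.5 to 31.2%), against 37.4% over protein-coding genes, and the first 10% held 7 (10.1%, against 12.4%). Between them, the seventh part of 10 held 14 peaks and the ninth held 13. Distance in bases gave the other order: 31 of the 69 midpoints (44.9%) were within 1000 bases of the 3′ end, against 17.3% over protein-coding genes. Many HOX genes are short, so that 1000 bases are a large share of the span. HOXA6 and HOXB6 had a peak that reached the last base of the span, and HOXA5, HOXB8 and HOXB9 one that began at its first base. Whether these borders are edges of enrichment or follow the annotated ends was not tested. Exons, untranslated regions and stop codons were not analysed here.

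**Figure D3:**
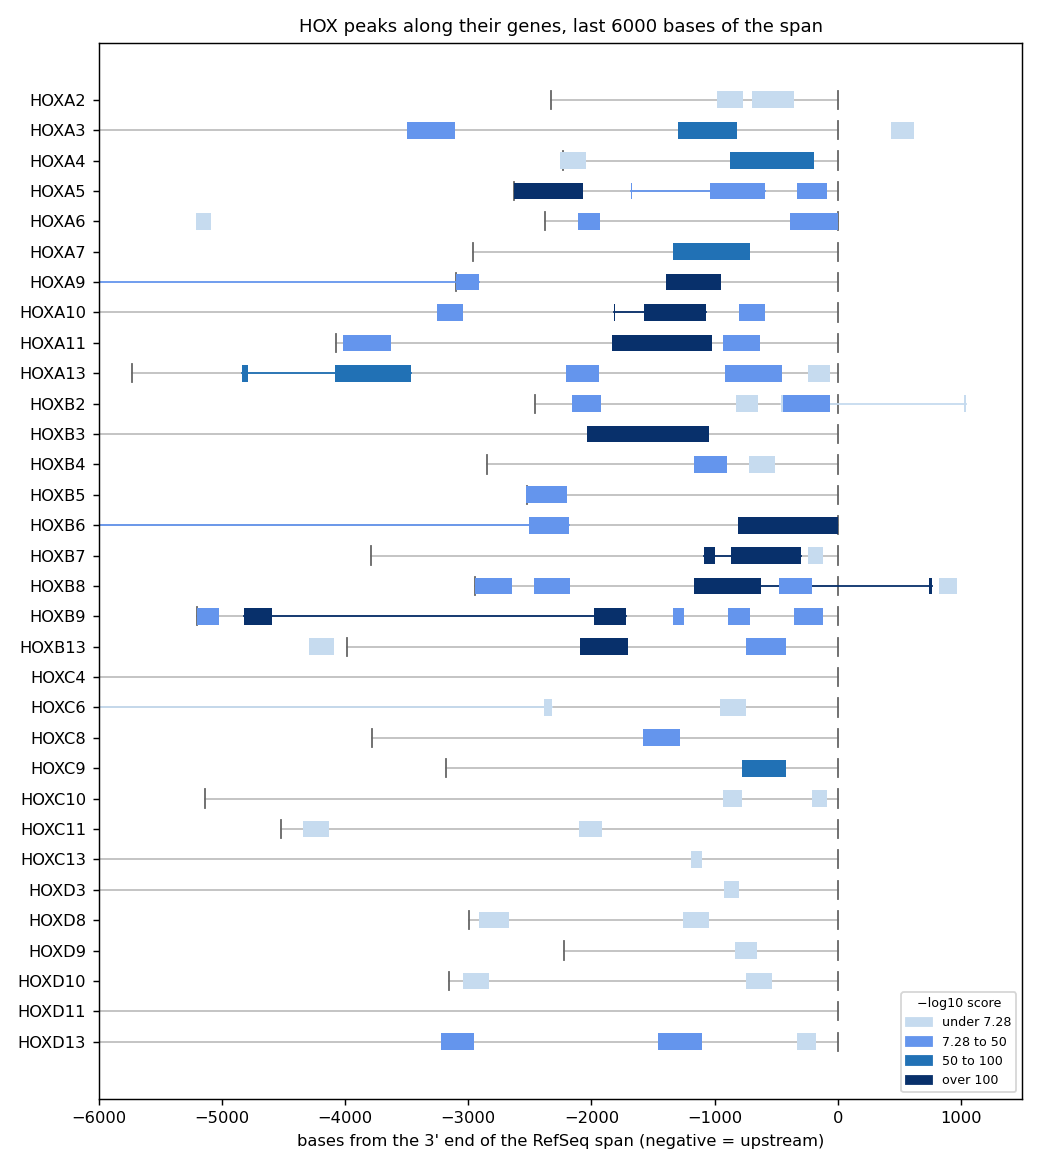
Each of 32 rows is a HOX gene with a peak, the x axis gives bases from the 3′ end of its RefSeq span (negative values are upstream), boxes are peak blocks coloured by −log10 score and joined by lines across gaps, and grey ticks mark span ends that fall in the range. The plot shows 73 peaks, leaves out 7 that lie more than 6000 bases upstream of the 3′ end, and shows the strongest boxes in HOXA and HOXB at differing distances from that end.

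The 13 peaks outside the span of their own gene belonged to 12 genes, and 4 of them lay wholly inside the span of another HOX gene. These were the second HOXA4 peak and the third HOXA6 peak, both inside the long HOXA3 unit, the HOXB3 peak inside HOXB6 and the strongest HOXD10 peak, inside HOXD11. Of the 82 HOX peaks, 13 were listed in 2 blocks (15.9%) and 69 in 1, while 18.5% of all protein-coding peaks had more than 1 block. The gaps between blocks ran from 133 bases in HOXB7 to 20439 bases in HOXC4. A peak of 2 blocks was the top peak in HOXB7, HOXB9, HOXA10, HOXA13 and HOXD10, and the sole, weaker peak in HOXC4.

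On the same strand, peaks of different HOX genes shared bases in 3 pairs. The strongest HOXD10 peak and the HOXD11 peak shared 390 bases, with scores of 4e-23 and 2.5e-22. HOXB3 and HOXB6 shared 400 bases at 1e-40 and 3.2e-41, and HOXC6 and HOXC4 shared 68 bases at 0.00012 and 3.2e-06. In the first 2 pairs the −log10 scores were close, with ratios of 1.04 and 1.01, and which gene the fragments came from cannot be told apart. Same-strand peaks of genes without a symbol also overlapped HOX peaks: ENSG00000273433 (1.6e-52) shared 416 bases with the strongest HOXA4 peak, ENSG00000257184 (2e-28) shared 295 bases with the strongest HOXA9 peak, and ENSG00000273046 (0.0059) shared 69 bases with HOXC6 and 68 with HOXC4.

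Peaks on opposite strands shared bases in 10 pairs, which involved 10 HOX peaks (12.2%, 95% Wilson interval 6.76 to 21.0%) of 8 HOX genes and 9 peaks of 7 antisense RNAs. Over all protein-coding peaks the share was 7.55%, with 5.83% on the minus strand and 12.0% on the plus strand. The HOXA cluster had 7 such peaks, HOXB had 2, HOXC had 1 and HOXD none. The HOX peak had the smaller score in 8 pairs and the antisense peak in 2. In 5 pairs the shared bases made up at least 90% of the shorter peak.

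The closest pair was HOXA7 with HOXA-AS3, which shared 623 bases at scores of 5e-61 and 1e-59. It was the sole HOXA7 peak, so HOXA7 had none that was free of an antisense overlap. HOXA11 and HOXA11-AS shared 368 bases at 6.3e-25 and 2e-24. In these 2 pairs the −log10 scores differed by less than 10%, and positions alone do not tell which RNA carried the mark.

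The other pairs had unequal scores. HOXA10 (1e-119) covered all 237 bases of a HOXA10-AS peak (1.3e-24), HOXB6 (1e-102) shared 278 bases with HOXB-AS3 (2e-53), and HOXB3 (1e-162) shared 92 bases with HOXB-AS1 (1.3e-50). HOXA-AS2 had 1 peak in 6 blocks (1.9e-09) that shared 114 bases with the strongest HOXA3 peak and 77 with the next. HOXA-AS3 also met HOXA6, sharing 109 bases at 0.00015 against 3.1e-08 for HOXA6, and 115 bases at 4.4e-07 against 2.9e-05. HOXC-AS2 (7.9e-11) shared 28 bases with the weak HOXC9 peak (0.0068), the pair in which the antisense RNA led by most. The ratio of −log10 scores, antisense over HOX, ran from 0.163 to 4.66 with a median of 0.513.

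**Figure D4:**
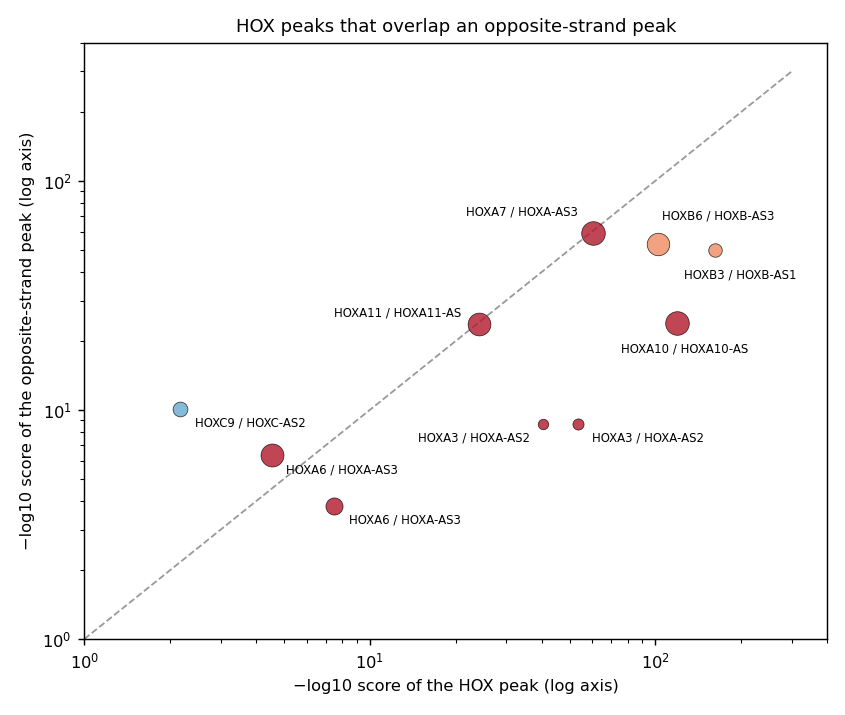
The −log10 score of the opposite-strand peak (y axis) is plotted against that of the HOX peak (x axis), both on log scales, for the 10 overlapping pairs, with larger points for a larger share of the shorter peak, a colour per cluster and a dashed line of equal scores. HOXA7 with HOXA-AS3 and HOXA11 with HOXA11-AS lie near the line, 2 pairs lie above it, and the other 6 lie below it.

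Of the 82 HOX peaks, 64 shared no base with a peak of another gene on either strand, and these came from 30 genes. HOXA7, HOXB3 and HOXC4 were the genes for which every listed peak had such an overlap. Within single genes, 5 pairs of peaks overlapped on the same strand (HOXA2 in 2 pairs, and HOXA13, HOXB2 and HOXB8 in 1 each), all between the first and the second part of the list. The second part held 745 of the 20261 peaks and 15 of the 82 HOX peaks, and how it differs from the first is not given in the sources used here. With overlapping peaks of the same strand merged, 74 HOX peaks remained.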

How the data were processed

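Poly(A) RNA of MDA-MB-231 cells was measured by m6A-seq in 2 input and 2 IP libraries. The authors aligned reads with STAR to GENCODE, called peaks with exomePeak and filtered them by fold enrichment and FDR. The deposited list gives 1 score per peak for all 4 libraries, which was read as a p-value, and it may instead be an FDR, since the header leaves this unstated. Depth, read counts and fold enrichment are not in the list, so the depth behind a peak is unknown. Coordinates are counted from 1 on hg38, the build named in the submitters' processing notes.

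Ensembl IDs were matched to symbols without their version, and spans and biotypes came from RefSeq GRCh38.p14 by symbol. For the shares of protein-coding genes by strand, the strand came from the RefSeq start table, for genes with and without a peak. These shares thus cover the 7498 minus-strand and 7820 plus-strand genes of that table. The strand of HOX genes was set by cluster, for all of them. Peaks overlapped where their blocks had at least 1 base in common. A score of 0 was ranked at a −log10 of 323. Python 3.11.15, pandas 2.3.3, numpy 2.4.6, scipy 1.17.1 and matplotlib 3.10.9 were used, and the functions were tested on simulated peaks. HOX genes were named with each of their peaks, as was each gene whose peak overlaps one of these, and members of other gene lists were named where they had a peak. A few genes enter the counts but are not reported here by themselves or drawn. The members and lists were chosen with earlier results of these data known.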

Additional observations from a re-analysis of the deposited data

How the results depend on the processing

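Restricting the list to peaks at or under its median score left 51 HOX peaks in place of 82, and 24 genes in place of 33. The genes lost were HOXA2, HOXC4, HOXC6, HOXC10, HOXC11, HOXC13, HOXD3, HOXD8 and HOXD9. The same restriction left 8 in place of 14 peaks in the final 10% of the span, whereas counting midpoints within 1000 bases of the 3′ end gave 31. An overlap of at least 50% of the shorter peak left 6 in place of 10 HOX peaks that met an antisense peak, and the use of outer spans with introns gave 12. The stricter definitions give fewer by construction. The number of genes with a peak was 32 or 33 after merging, after removal of the second part of the list and without antisense overlaps. A restriction to the span of the own gene left 32 genes (69 peaks), and to peaks that share no base with another gene 30 genes (64 peaks), and both were chosen after seeing the data.

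No paired analysis was possible because all libraries had been joined into a single value for each peak, and for the same reason no alternative leaves out a replicate. Depth behind the peaks is unknown, which limits any statement on the 6 HOX genes without a listed peak.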

Other observations

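Other transcripts of the HOX clusters also carried peaks. Of 19 non-coding RNA genes of the clusters that were found in the annotation, 12 had a peak (63.2%), and 11 had one at or under the list median. Over all protein-coding genes these shares were 42.7% and 27.8%. No share over non-coding RNA genes as a whole was computed, so these counts cannot be called high or low for such RNAs. Beside those that overlapped a HOX peak, the RNAs with a peak were HOTAIR, an antisense RNA of the HOXC cluster, with 3 peaks (strongest score 1.6e-21), HOXB-AS4 (7.9e-14), HAGLR in the HOXD cluster (2.1e-09), HOXC13-AS (1.7e-08) and HOXC-AS3 (0.00025). LINC03057, a minus-strand RNA between HOXB9 and HOXB13 that was not on this list and is named after its value was seen, had a peak of 858 bases at 7.9e-88.

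Among proteins that act with or on HOX genes, chromatin regulators had peaks in 19 of 25 genes (76.0%), 15 of them at or under the median, beside 42.7% and 27.8% of all protein-coding genes. In the Polycomb group, which silences HOX clusters, a peak of PHC2 was listed at 0, CBX6 had a strongest score of 1e-133, CBX8 2e-93, EZH1 1.3e-55, CBX2 2e-51, EZH2 6.3e-41, PHC3 7.9e-29, JARID2 1e-18, BMI1 5.2e-08 and EED 7.9e-05. Among regulators linked to HOX activation, they were 1e-195 for MEN1, 1e-165 for KAT6A, 7.9e-38 for DOT1L, 5e-28 for KDM6B, 7.9e-07 for KDM6A, 8.1e-06 for KMT2A and 2.3e-05 for WDR5. The boundary factor CTCF had 2e-15. SUZ12, PCGF2, RNF2, RING1, CBX7 and PHC1 had no listed peak.

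The TALE homeodomain proteins, which bind DNA together with HOX proteins, had peaks in 7 of 11 genes (63.6%). A peak at or under the median was found in 3 of the 11, a share near the 27.8% of all protein-coding genes: MEIS2 (7.9e-75), MEIS3 (4e-26) and TGIF2 (2e-12). PKNOX2 (1e-05), PBX4 (2.5e-05), TGIF1 (6.6e-05) and PKNOX1 (0.00041) were above it, and PBX2, PBX3 and MEIS1 had none. Of the 6 retinoic acid and retinoid X receptors, which relay a major inducer of HOX genes, RARA (1.1e-06) and RARG (0.00037) had a peak (33.3%, against 42.7% of all protein-coding genes), and neither reached the median. Of 15 further homeobox genes related to HOX, 7 had a peak (46.7%), a share near the 42.7% of all protein-coding genes: EN1 (1e-244), MNX1 (1e-228), CDX2 (1e-186), EN2 (3.2e-62), GBX1 (3.2e-22), GBX2 (1e-12) and MEOX1 (8.7e-06). EN1, MNX1 and CDX2 thus had peaks with smaller scores than most HOX genes, and all 3 are on the minus strand. None of these values was tested.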
